A study of Mus musculus with 14 samples.

Results

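Expression of 8 luminal genes was followed across sorted cell populations of the mouse mammary gland: the transcription factors Elf5, Ehf, Elf3, Gata3 and Tbx3, the progenitor surface proteins Kit and Cd14, and the secreted protein Ltf. They were found as the probes whose gene name in the scanner files is one of these symbols, which gave 12 probes of the 41174 on the array and 8 genes of the 23646 tested. All 12 probes and all 8 genes passed the filter on dim signal. Elf5, Elf3, Gata3, Kit and Cd14 have 1 probe each, Tbx3 and Ltf 2, and Ehf 3.

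RNA was measured on 14 arrays in 8 groups. Pregnant wild-type FVB/N-J mice gave 3 sorted populations, named P4, P5 and P6, and virgin wild-type FVB/N-J mice gave the same 3, all measured on 2 arrays per population and condition. By their labels, P4 is enriched for mammary stem cells (MaSC), P5 holds enriched luminal progenitors, and P6 consists of differentiated mammary epithelial cells (MEC). They give the gate CD24+CD29hi for both P4 and P5, and CD24lo for P6. From virgin transgenic L2G85 mice, an FVB/N luciferase line, came lineage-negative cells with high GFP (GFPhi, labelled as enriched for stem cells) and with low GFP (GFPlo, labelled as depleted), with 1 array each. In that line, as background, the CAG promoter drives luciferase and GFP. The labels used here give no age, no day of pregnancy and no word on whether replicates came from separate mice, so a p-value here takes in only how far these particular arrays lie apart, and that distance may be technical. Each array carried Cy5-labelled RNA of the sorted cells and Cy3-labelled Universal Mouse Reference RNA, pooled from 11 cell lines of the mouse. Array quality varied: the Cy5 signal cleared the background for 66.4% to 86.7% of probes, and the median Cy5 intensity ran from 70.9 to 196. Arrays were scanned in 3 runs. The virgin replicate 1 arrays fell in scan 1, the pregnant replicate 1 arrays in scan 3 and all replicate 2 arrays in scan 2. A comparison of pregnant with virgin mice within 1 scan so has 1 array a side. The scan 3 arrays alone were read without the scanner's extended-range setting. Saturation in Cy5 hit 236 spots in pregnant P4, 111 in P5 and 199 in P6 there. Every other array had at most 15 such spots. In scan 2, pregnant P5 and P6 lay on slide 4, and both P4 arrays, virgin P5 and virgin P6 on slide 2. Pregnancy differences of P5 and P6 within scan 2 so also set slide 4 against slide 2. Every level below is the log2 ratio of Cy5 over Cy3, and every difference is a difference of such log2 ratios. Levels of different genes are not compared.

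The inner, luminal layer of the mammary epithelium holds cells that carry receptors for oestrogen and progesterone and progenitors that give rise to milk-secreting alveolar cells in pregnancy. Gata3 and Tbx3 are transcription factors needed for luminal development, and Elf5, an Ets factor, drives the alveolar lineage. Elf3 and Ehf are Ets factors of epithelia, Kit is the receptor for stem cell factor, Cd14 is a co-receptor for bacterial lipopolysaccharide, and Ltf (lactoferrin) is an iron-binding milk protein. Kit, Cd14 and Elf5 are commonly used to mark luminal progenitors.

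Markers of other cells set the limits of these populations. Luminal epithelial markers averaged between 2.16 and 2.94 per array in pregnant P5, and between 3.84 and 3.87 in virgin P5. Their averages were -1.80 and -1.15 in pregnant P6, and between -0.03 and 0.56 in virgin P6. All 8 fibroblast markers were lower in P5 than in P6 in pregnant mice and in virgin mice alike, with median differences of -6.51 and -7.03, where 13.2% and 8.82% of all genes were lower. Their averages ran from 4.07 to 5.74 in pregnant P6 and from 5.30 to 5.40 in virgin P6, which goes against the label of P6 as differentiated epithelial cells. Cd24a, the gene of the CD24 gate, averaged 1.25 in pregnant P4 and 3.74 in pregnant P5, and 1.76 in virgin P4 and 3.52 in virgin P5. Basal markers averaged 1.96 and 1.59 in pregnant P5, and 0.60 and 0.29 in virgin P5 (median difference 1.49). Of the 10 basal markers, 1 was called higher there, 1 lower, and 8 did not pass (limma). All 10 were higher in virgin P4 than in virgin P5 (median 5.25), and 6 in pregnant P4 than in pregnant P5 (2.62). Luminal markers averaged 1.26 and 1.99 in pregnant P4, and 1.95 and 1.47 in virgin P4. The part of fibroblast RNA in the levels of P6 was not tested, nor was that of basal RNA in P5. Less RNA per cell and fewer cells of a type cannot be told apart in such sorted populations, which holds for every difference below.

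The comparison that moved the most of the 8 genes in pregnancy was that of P5. Pregnancy is compared here with the virgin state in each population. In pregnant P5, Tbx3, Kit, Gata3 and Elf3 fell relative to virgin P5, and none of the 8 rose, by limma at an adjusted p under 0.05. Of all genes tested 21.4% were called there, 10.7% lower and 10.7% higher. Elf5, Ehf, Cd14 and Ltf did not pass the test. The median difference of the 8 genes was -0.80, against 0.04 over all genes tested. In P4 none of the 8 passed (limma, 2 of 8 at an unadjusted p under 0.05), where 3.75% of all genes did (1.49% higher, 2.25% lower). In P6 none passed either (limma, 2 of 8 at an unadjusted p under 0.05), where 0.186% of all genes did (0.0465% higher, 0.14% lower). The F test of whether the effect of pregnancy differs among P4, P5 and P6 called Tbx3 alone of the 8, where 7.95% of all genes were called. With the replicate number as a block it called 5 of the 8, where 27.1% of all genes were called. In pregnant mice the average of the 8 genes was lower on replicate 1, from scan 3, than on replicate 2, from scan 2. It was 1.52 and 2.52 in P4, 1.85 and 2.78 in P5, and -0.07 and 0.81 in P6. This shift enters every pregnant mean, and scan, scanner setting and replicate cannot be told apart in it.

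**Figure D1:**
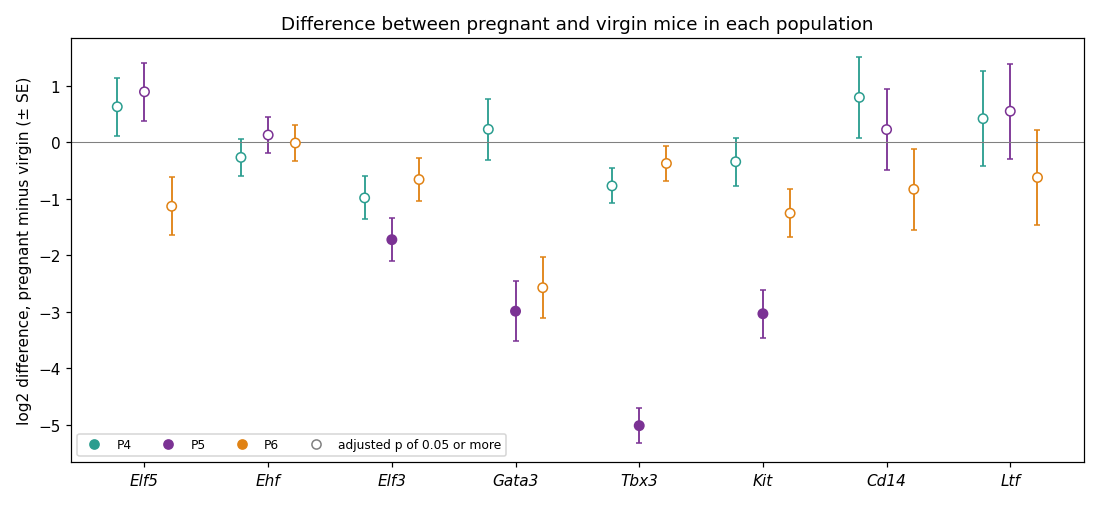
Log2 difference between pregnant and virgin mice (pregnant minus virgin) for each gene in P4, P5 and P6, with bars of 1 SE from the fit over 12 arrays; filled points have an adjusted p under 0.05. The 4 filled points are all in P5: Tbx3 (-5.02), Kit (-3.03), Gata3 (-2.99) and Elf3 (-1.72).

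Populations were then compared within each condition. In virgin mice Elf5, Gata3, Kit and Tbx3 were lower in P4 than in P5 and none was higher, where 11.4% of all genes were called, 6.56% higher and 4.8% lower. The median of the 8 was -1.84, against 0.03 over all genes. With the replicate block 7 of the 8 passed, where 24.2% of all genes did. Virgin P5 was higher than virgin P6 in 6 of the 8 (all but Ehf and Ltf), where 16.1% of all genes were called, 7.32% higher and 8.82% lower. The median of the 8 was 2.67, and the replicate block called 7 of 8, where it called 29% of all genes. Gata3 alone was higher in virgin P4 than in virgin P6, where 10.3% of all genes were called, 4.88% higher and 5.44% lower. The replicate block called 3 of 8, where it called 21.9% of all genes.

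In pregnant mice the pattern between populations was mixed. Relative to P5, P4 was lower in Elf5 and higher in Tbx3, where 22.6% of all genes were called, 11.7% higher and 10.9% lower. The replicate block called 5 of 8, where it called 41.2% of all genes. Relative to P6, P4 was higher in Gata3 and Elf5, where 12.1% of all genes were called, 6.2% higher and 5.87% lower. The block called 6 of 8, against 24.4% of all genes. Relative to P6, P5 was higher in Elf5, Gata3, Cd14 and Elf3 and lower in Tbx3, where 26.9% of all genes were called, 13.8% higher and 13.2% lower. There the block called all 8, where it called 44.3% of all genes.

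**Figure D2:**
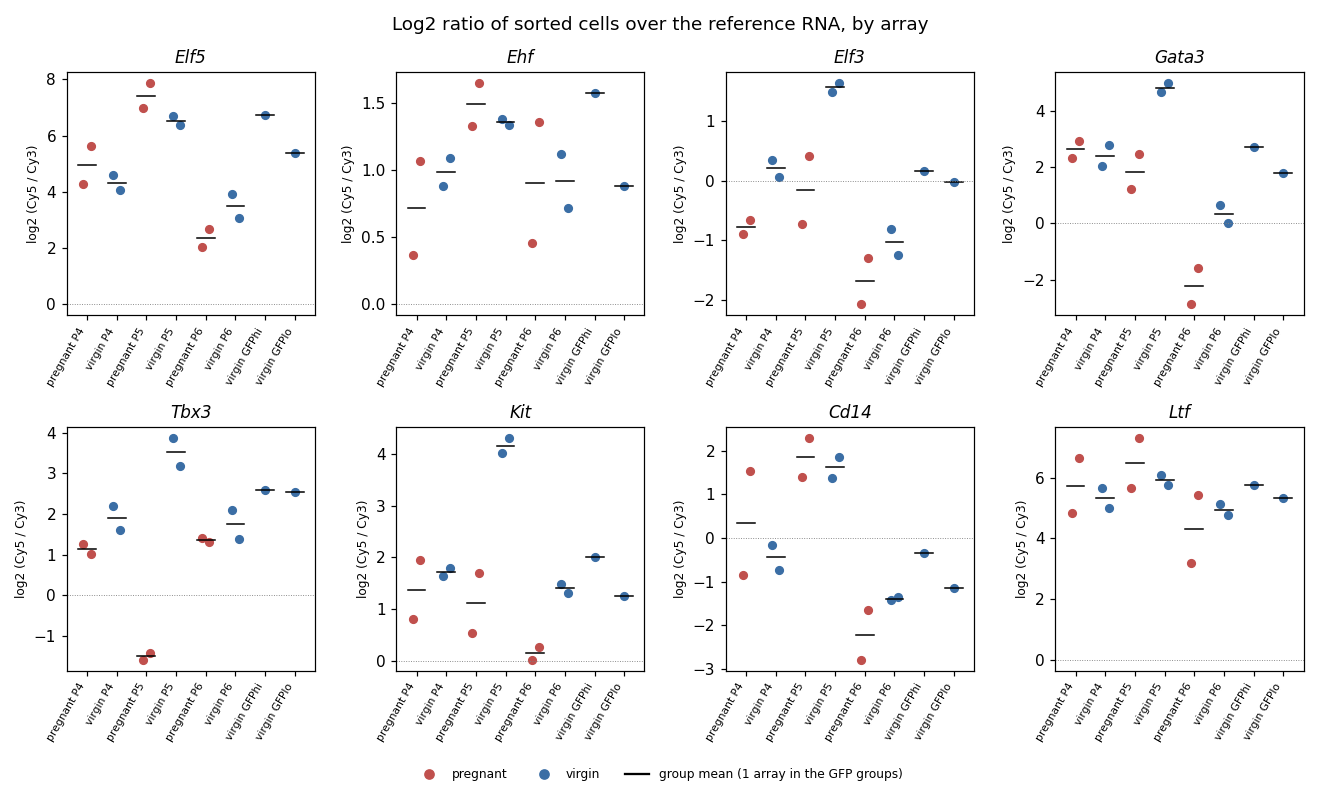
Log2 ratio of sorted cells over the reference RNA for each gene on each of the 14 arrays, 1 point per array, with a line at the group mean; each panel has its own axis. Tbx3, Kit and Gata3 lie lower on both pregnant P5 arrays than on both virgin P5 arrays, and Elf5 and Cd14 do not. Of these, only Tbx3 has its lowest values in pregnant P5.

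**Figure D3:**
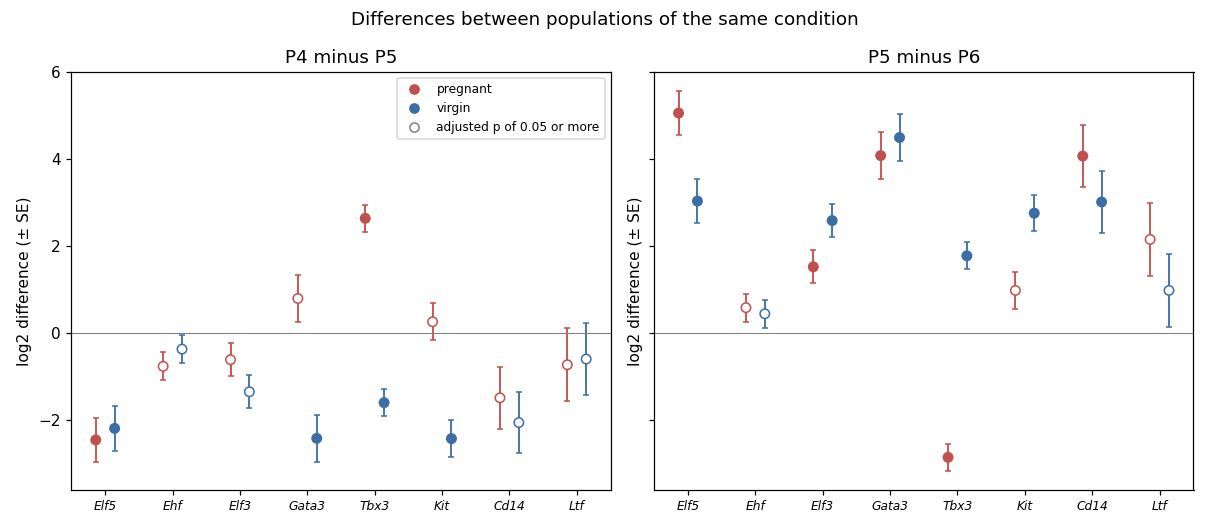
Log2 differences P4 minus P5 (left) and P5 minus P6 (right) for each gene in pregnant and in virgin mice, with bars of 1 SE; filled points have an adjusted p under 0.05. Tbx3 lies at 2.64 in pregnant and at -1.61 in virgin mice in P4 minus P5, and at -2.87 and 1.77 in P5 minus P6.

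Tbx3 is a T-box repressor, read here by the brighter of its 2 probes. Its log2 ratios in pregnant mice were 1.27 and 1.02 in P4, -1.58 and -1.41 in P5, and 1.42 and 1.32 in P6. In virgin mice they were 2.21 and 1.62 in P4, 3.86 and 3.18 in P5, and 2.10 and 1.39 in P6. P5 was thus the highest population in virgin mice and the lowest in pregnant mice, and its arrays did not overlap between the conditions. The difference of pregnant P5 from virgin P5 was -5.02 ± 0.31 (SE, adjusted p = 3.46e-05), or 32.3-fold lower. The pregnancy effect in P4 (-0.77 ± 0.31, adjusted p = 0.27) exceeded that in P5 by 4.24 ± 0.44 (adjusted p = 0.0017). The effect in P5 lay below that in P6 (-0.37 ± 0.31, adjusted p = 0.91) with a difference of -4.64 ± 0.44 (adjusted p = 9.47e-04). The direction of P4 against P5 was opposite in the conditions: 2.64 ± 0.31 in pregnant mice (adjusted p = 6.05e-04) and -1.61 ± 0.31 in virgin mice (adjusted p = 0.011). Within scan 2, with 1 array each, pregnant P5 differed from virgin P5 by -4.58. The virgin P4 minus virgin P5 call was lost without virgin P4 replicate 2 (adjusted p = 0.0955) and without virgin P5 replicate 1 (adjusted p = 0.0825), and both virgin calls of P5 were lost with median centring in place of loess (adjusted p of 0.101 against P4 and 0.0630 against P6).

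The second Tbx3 probe, 11732 bases from the first in the mm7 build, stayed near 0 in every group, between -0.10 in pregnant P5 and 0.26 in virgin P5. In a fit over all probes that passed, its pregnant P5 minus virgin P5 difference was -0.36 (adjusted p = 0.065). It was above background in Cy5 on 13 of the 14 arrays, and in Cy3 on 11, so its ratios rest on dim signal. All Tbx3 values above come from the brighter probe. With the mean of both probes the calls stood and the differences shrank, to -2.69 for pregnant P5 minus virgin P5, 1.40 for pregnant P4 minus P5 and -0.82 for virgin P4 minus P5. The first of these is smaller in size than the differences of Kit and Gata3 in P5.

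Gata3 is a zinc-finger factor of luminal cells. In pregnant mice it had log2 ratios of 2.34 and 2.94 in P4, 1.23 and 2.47 in P5, and -2.88 and -1.58 in P6. In virgin mice it had 2.04 and 2.78 in P4, 4.67 and 5.004 in P5, and 0.65 and 0.03 in P6. Virgin P5 stood alone at the top, pregnant P4, virgin P4 and pregnant P5 overlapped, and virgin P6 and then pregnant P6 lay below them. The fall in pregnant P5 relative to virgin P5 was -2.99 ± 0.54 (adjusted p = 0.0055), or 7.94-fold. P4 did not pass between pregnant and virgin mice (0.23 ± 0.54, adjusted p = 0.90). The P4 effect exceeded the P5 effect by 3.22 ± 0.76 (adjusted p = 0.038), while the F test over the 3 populations gave an adjusted p of 0.057, and 0.0039 with the replicate block. In P6 the pregnancy difference was -2.57 ± 0.54 (adjusted p = 0.15). By limma the effect in P5 did not pass against that in P6 (-0.42 ± 0.76, adjusted p = 0.84). Within scan 2 the difference in P5 was -2.53.

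Relative to P6, Gata3 was higher in P4 by 4.87 ± 0.54 in pregnant mice (adjusted p = 5.28e-04), or 29.3-fold. Relative to P6 in virgin mice, P4 was higher by 2.07 ± 0.54 (adjusted p = 0.044). That call was lost in 11 of the alternatives, among them the scanner's own log ratio (2.13, adjusted p = 0.059) and no filter on dim probes (adjusted p = 0.053), and each of 8 single arrays. Without virgin P4 replicate 2 the adjusted p was 0.27. Virgin P4 was lower than virgin P5 by 2.43, a difference of -2.43 ± 0.54 (adjusted p = 0.021). That call was lost without any of its 4 arrays, with adjusted p of 0.15 and 0.058 without virgin P4 replicates 1 and 2, and 0.080 and 0.13 without virgin P5 replicates 1 and 2.

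Elf5 was higher in P5 than in the other populations in both conditions. It had log2 ratios of 4.27 and 5.65 in P4, 6.97 and 7.87 in P5, and 2.05 and 2.67 in P6 of pregnant mice. In virgin mice it had 4.59 and 4.06 in P4, 6.69 and 6.37 in P5, and 3.92 and 3.07 in P6. GFPhi lay at 6.74 and GFPlo at 5.39. Pregnant P5 stood highest and pregnant P6 lowest, with no overlap with their neighbours in the order, and pregnant P4 and virgin P4 overlapped. Pregnant P5 was higher than pregnant P6 by 5.06 ± 0.51 (adjusted p = 1.60e-04), or 33.4-fold, and virgin P5 was higher than virgin P6 by 3.03 ± 0.51 (adjusted p = 0.0037). Pregnant P4 was lower than pregnant P5 by 2.46, a difference of -2.46 ± 0.51 (adjusted p = 0.0096), and higher than pregnant P6 by 2.60 ± 0.51 (adjusted p = 0.011). Virgin P4 was lower than virgin P5, by a difference of -2.20 ± 0.51 (adjusted p = 0.026).

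Elf5 did not pass the test of pregnancy in P5 (0.89 ± 0.51, adjusted p = 0.27) or in P4 (0.63 ± 0.51, adjusted p = 0.65). With scan as a block, both passed: 1.66 in P5 (adjusted p = 0.0016) and 1.40 in P4 (adjusted p = 0.014). The within-scan values were 1.502 in P5 and 1.58 in P4, from 1 array each. The Elf5 probe was above background in Cy5 on all 14 arrays and in Cy3, the reference, on 11, so its ratio depends on how a dim reference signal is treated. With the scanner's own log ratio, pregnant P4 minus P5 was -1.53 (adjusted p = 0.12), pregnant P4 minus P6 was 0.62 (adjusted p = 0.69), virgin P4 minus P5 was -0.68 (adjusted p = 0.70) and virgin P5 minus P6 was 1.40 (adjusted p = 0.21). Of the Elf5 calls only pregnant P5 minus pregnant P6 stood under all 25 alternatives run, and it came to 2.15 with the scanner's own ratio (adjusted p = 0.0314). Pregnant P4 minus P5 was also lost without pregnant P4 replicate 1 (adjusted p = 0.055) and without pregnant P5 replicate 2 (0.073). Pregnant P4 minus P6 was lost without pregnant P4 replicate 2 (0.059) and without pregnant P6 replicate 1 (0.072). Virgin P4 minus P5 was lost without any of its 4 arrays (0.080 to 0.17).

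Elf3, an epithelial Ets factor, fell in P5 in pregnancy. Its log2 ratios were -0.89 and -0.66 in P4, -0.73 and 0.41 in P5, and -2.07 and -1.29 in P6 of pregnant mice. In virgin mice they were 0.34 and 0.07 in P4, 1.49 and 1.64 in P5, and -0.81 and -1.24 in P6. Virgin P5 was highest, and pregnant P6 lowest, with the groups between them overlapping. Pregnant P5 was lower than virgin P5, at -1.72 ± 0.38 (adjusted p = 0.014), a difference that reached -1.23 within scan 2. It was lost without virgin P5 replicate 1 (adjusted p = 0.065), virgin P5 replicate 2 (0.070) or pregnant P5 replicate 1 (0.063). P5 exceeded P6 by 1.52 ± 0.38 in pregnant mice (adjusted p = 0.018) and by 2.59 ± 0.38 in virgin mice (adjusted p = 0.0018). The difference in pregnant mice was lost without pregnant P5 replicate 2 (adjusted p = 0.10) and without pregnant P6 replicate 1 (0.11), and it came to 2.52 with the scanner's own ratio.

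Ehf, an Ets factor whose gene lies beside Elf5 on chromosome 2, was read by 3 probes that did not match. In GRCm38.p6 Ehf lies at chr2:103263431-103303275 and Elf5 at chr2:103412098-103450989, with 108822 bases between them and no protein-coding gene starting there. The probe that stood for Ehf in the fits, because it was brightest on average (probe 1), crosses 3817 bases of the genome in the mm7 build at chr2:103130537-103134353, so it spans an intron. Probe 2 crosses 160 bases at chr2:103124715-103124874 and also spans an intron. Probe 3 lies at chr2:103115014-103115073. Ehf lies on the minus strand, so probe 1 is farthest upstream. The sequences of the probes 1 and 2, which sit across introns and so read spliced RNA, are shown because they gave different results; all bases are in lower case:
probe 1: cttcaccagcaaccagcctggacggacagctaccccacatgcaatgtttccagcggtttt
probe 2: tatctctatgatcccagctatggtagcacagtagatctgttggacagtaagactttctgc

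Probe 1 was called in no comparison of the main fits. With the replicate block it was called in pregnant P5 minus pregnant P6. It had log2 ratios of 0.37 and 1.06 in P4, 1.33 and 1.65 in P5, and 0.46 and 1.35 in P6 of pregnant mice, and of 0.88 and 1.09 in P4, 1.38 and 1.33 in P5, and 1.11 and 0.72 in P6 of virgin mice. The groups other than P5 overlapped one another. P5 did not stand apart either: pregnant P6 replicate 2 (1.35) lay above virgin P5 replicate 2 and pregnant P5 replicate 1 (1.33 each). Probe 2 had 0.79 and 1.24 in pregnant P4, 2.39 and 2.86 in pregnant P5, and -0.14 and -0.04 in pregnant P6. In virgin mice it had 0.58 and 0.45 in P4, 2.41 and 2.71 in P5, and 0.31 and 0.46 in P6. The arrays of P5 so stood apart from those of the other populations with probe 2.

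Probe 3 was also higher on the P5 arrays than on all others. It had log2 ratios of 0.56 and 0.77 in P4, 1.85 and 2.01 in P5, and 0.04 and 0.02 in P6 of pregnant mice. In virgin mice it had 0.48 and 0.47 in P4, 2.38 and 2.42 in P5, and 0.16 and 0.36 in P6. In the fit over all probes that passed, P4 minus P5 in virgin mice was -2.05 ± 0.21 with probe 2 (adjusted p = 5.37e-04) and -1.93 ± 0.13 with probe 3 (adjusted p = 8.02e-05), against -0.37 ± 0.33 with probe 1 (adjusted p = 0.69). In pregnant mice the 3 values were -1.61 ± 0.21 (adjusted p = 0.0011), -1.27 ± 0.13 (adjusted p = 3.89e-04) and -0.77 ± 0.33 (adjusted p = 0.14). Pregnant P5 exceeded pregnant P6 by 2.71 ± 0.21 with probe 2 (adjusted p = 4.64e-05) and by 1.90 ± 0.13 with probe 3 (adjusted p = 2.69e-05). Probe 3 was not well above background on either pregnant P6 array, so its level there is only an upper limit and no fold is given. Pregnancy in P5 gave 0.06 ± 0.21 with probe 2 (adjusted p = 0.89), -0.47 ± 0.13 with probe 3 (adjusted p = 0.040) and 0.13 ± 0.33 with probe 1 (adjusted p = 0.84). In Cy3, probe 3 was above background on 1 of 14 arrays and probe 2 on 8. The mean of the 3 probes was lower in virgin P4 than in virgin P5 (-1.45) and passed in 4 comparisons, P4 against P5 and P5 against P6 in both conditions.

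**Figure D4:**
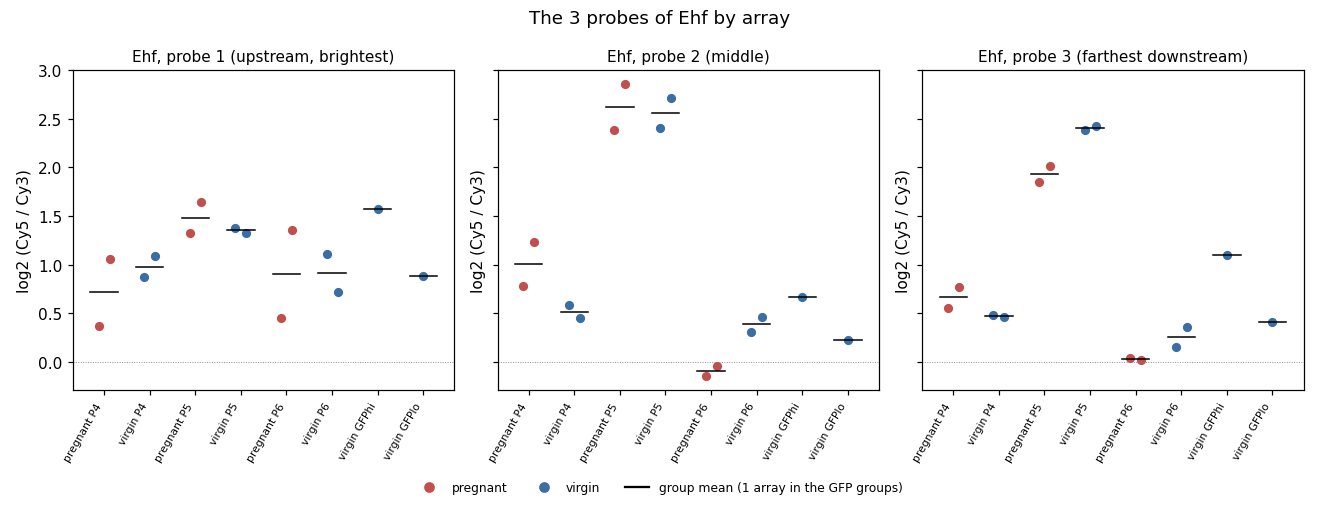
Log2 ratio of the 3 Ehf probes on each of the 14 arrays, with a line at the group mean; the y axis is shared. Probes 2 and 3 lie between 1.85 and 2.86 on the P5 arrays and at or below 1.24 on all others, while probe 1 runs from 0.37 to 1.65.

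Kit, the receptor for stem cell factor, was highest on both virgin P5 arrays. It had log2 ratios of 0.81 and 1.94 in P4, 0.54 and 1.70 in P5, and 0.02 and 0.27 in P6 of pregnant mice. In virgin mice it had 1.64 and 1.80 in P4, 4.01 and 4.30 in P5, and 1.48 and 1.32 in P6. All other arrays lay well below the virgin P5 arrays. Pregnant P5 was lower than virgin P5 by 8.19-fold, at -3.03 ± 0.42 (adjusted p = 0.0016), and the effect of pregnancy in P4 (-0.34 ± 0.42, adjusted p = 0.79) exceeded that in P5 by 2.69 ± 0.60 (adjusted p = 0.030). The difference in P5 within scan 2 was -2.60. In P6 the effect of pregnancy was -1.25 ± 0.42 (limma, adjusted p = 0.47), and the effect in P5 did not pass against it (-1.78 ± 0.60, adjusted p = 0.13). The F test gave an adjusted p of 0.059, and 0.0032 with the replicate block. Virgin P4 lay 5.41-fold below virgin P5 (-2.43 ± 0.42, adjusted p = 0.0068), and virgin P5 above virgin P6 by 2.76 ± 0.42 (adjusted p = 0.0022). Pregnant P5 did not pass against pregnant P6 (0.98 ± 0.42, adjusted p = 0.13), but did with the replicate block (adjusted p = 0.011). The virgin P4 call was lost without virgin P4 replicate 1 (adjusted p = 0.053) or virgin P5 replicate 2 (0.056), and with the scanner's own ratio (-2.12, adjusted p = 0.13). The virgin P5 minus P6 call was also lost with the scanner's own ratio (2.29, adjusted p = 0.0747) and with the series table (adjusted p = 0.0743). The Kit probe was printed 10 times on each array, and it was above background in Cy3 on 11 of 14 arrays.

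Kitl, which encodes the ligand of Kit, had its highest means in P4 in both conditions. It averaged 3.77 ± 0.62 in P4, -0.69 ± 0.73 in P5 and 0.55 ± 0.12 in P6 of pregnant mice (SD, n = 2 each), and 2.89 ± 0.06 in P4, 1.29 ± 0.27 in P5 and 1.13 ± 0.48 in P6 of virgin mice. Pregnant P4 exceeded pregnant P5 by 4.46 ± 0.40 (adjusted p = 1.77e-04), and virgin P4 exceeded virgin P5 by 1.60 ± 0.40 (adjusted p = 0.036). Kitl fell in pregnant P5 relative to virgin P5 (-1.98 ± 0.40, adjusted p = 0.0093), as Kit did.

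Cd14, the co-receptor for lipopolysaccharide, had its highest means in P5 in both conditions, but was not called between P4 and P5. It had log2 ratios of -0.84 and 1.54 in P4, 1.41 and 2.28 in P5, and -2.79 and -1.66 in P6 of pregnant mice. In virgin mice it had -0.16 and -0.74 in P4, 1.37 and 1.86 in P5, and -1.43 and -1.36 in P6. The pregnant P4 arrays lay far apart, one of them lay above a pregnant P5 array, and the P5 groups of both conditions overlapped. P4 minus P5 was -1.50 ± 0.71 in pregnant mice (adjusted p = 0.181) and -2.06 ± 0.71 in virgin mice (adjusted p = 0.118). P5 exceeded P6 by 4.07 ± 0.71 in pregnant mice (adjusted p = 0.0032), or 16.8-fold, and by 3.01 ± 0.71 in virgin mice (adjusted p = 0.021). The call in virgin mice was lost without any one of its 4 arrays, with adjusted p of 0.067 and 0.12 without virgin P5 replicates 1 and 2, and 0.091 and 0.086 without virgin P6 replicates 1 and 2. Pregnancy gave 0.23 ± 0.71 in P5 (adjusted p = 0.87). Cd14 is, as background, also a gene of macrophages, and the part of macrophage RNA was not tested. The average of 10 macrophage and monocyte markers per array ran from -1.46 to -1.28 in pregnant P5 and from -1.41 to -1.12 in virgin P5, against -2.16 to -1.22 in pregnant P6 and -1.54 to -0.95 in virgin P6. None of the 10 markers was called between P5 and P6 in either condition (limma), and Ptprc, the pan-leucocyte gene, averaged -3.78 in pregnant P5 and -3.68 in virgin P5.

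Ltf, the milk protein lactoferrin, was high in every group relative to the reference. It had log2 ratios of 4.84 and 6.63 in P4, 5.65 and 7.29 in P5, and 3.20 and 5.44 in P6 of pregnant mice, and of 5.65 and 4.98 in P4, 6.10 and 5.74 in P5, and 5.12 and 4.76 in P6 of virgin mice. The arrays of all neighbouring groups overlapped, and the 2 arrays of each pregnant group lay far apart. No population and no pregnancy difference passed; pregnant P5 minus pregnant P6 was 2.15 ± 0.84 (adjusted p = 0.097). The second Ltf probe gave 2.89 ± 0.78 there (adjusted p = 0.028). In each pregnant population replicate 1, from scan 3, was lower than replicate 2, from scan 2, as it was for every other member but Tbx3. With scan as a block, pregnancy gave 1.73 in P5 (adjusted p = 0.000566) and 1.60 in P4 (adjusted p = 0.0042), and the within-scan values were 1.55 and 1.65. The Ltf probe used was saturated on pregnant P5 replicate 1, so its level there is a lower limit, and the differences of pregnant P5 given here rest on it, apart from the within-scan value. The second probe read 6.24 on that array, against 5.65, and gave 1.01 ± 0.78 for pregnant P5 minus virgin P5 (adjusted p = 0.438).

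The comparison that the study's design sets out, stem-cell-enriched against depleted populations, called none of the 8. In pregnant mice the enriched group was P4 and the depleted group P5 and P6, and the limma test called 0 of the 8 (0 at an unadjusted p under 0.05) and 2.49% of all genes (2.25% higher, 0.237% lower). In virgin mice the enriched group was P4 and GFPhi and the depleted group P5, P6 and GFPlo, and the test called 0 of the 8 (0 at an unadjusted p under 0.05) and 1.62% of all genes (1.52% higher, 0.106% lower). The pooled depleted group holds P5 and P6, which differ as given above, and those differences enter the spread that this test uses. For Gata3 the SE was 1.60 here in pregnant mice, against 0.54 in the fit with a mean per population. With a mean for each of the 8 groups, 2 of the 8 genes were called, in pregnant mice only. So the lack of calls does not show that the populations are alike. The largest of these differences was that of Gata3 in pregnant mice (2.83 ± 1.60, adjusted p = 0.57).

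GFPhi and GFPlo give the 8 genes 1 array each, so there is no test. GFPhi was higher than GFPlo in all 8, and in 1 (Elf5) by 2-fold or more. Of all genes 6.34% differed by that much, 3.35% higher and 2.99% lower. The differences were 1.35 for Elf5, 0.93 for Gata3, 0.80 for Cd14, 0.75 for Kit, 0.69 for Ehf, 0.44 for Ltf, 0.19 for Elf3 and 0.05 for Tbx3. The median difference over all genes was 0.005. Tbx3 lay above 57.3% of all genes and Elf3 above 75.2%, and the other members above 90.0% (Ltf) to 98.0% (Elf5). The average of the basal markers was 4.89 in GFPhi and 1.51 in GFPlo, and that of the fibroblast markers 1.501 in GFPhi and 4.86 in GFPlo.

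Genes of the same pathways were taken from lists. Among 20 other Ets factors tested, 1 rose and 3 fell in pregnant P5 relative to virgin P5, near the 21.4% of all genes called there. Spdef, an Ets factor of secretory epithelia, was at 0.03 in pregnant P5 and 2.33 in virgin P5 (-2.30 ± 0.12, adjusted p = 2.07e-05). Ets2 fell by 1.97 on the log2 scale and Gabpa fell by 0.94, while Etv5 rose by 1.07. Of the 5 other Gata factors none was called in that comparison (limma), and of 14 other T-box factors Tbr1 rose and Mga and Tbx6 fell, again near the 21.4% of all genes called. Of 9 partners of Kit, Cd14, Gata3 and Ltf, 2 rose, 1 fell and 6 did not pass, where 10.7% of all genes rose and 10.7% fell. Ly96 and Tlr2, proteins of Toll-like signalling, rose by 1.47 and 2.29, and Kitl fell.

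Hormone-sensing luminal genes fell in the same comparison as Tbx3, Gata3 and Kit. Of 13 tested, 11 fell and none rose in pregnant P5 relative to virgin P5, where 10.7% of all genes fell, with a median of -2.80 against 0.04 over all genes. On the log2 scale Prom1, a luminal surface marker, fell by 4.51 and Areg, the growth factor amphiregulin, fell by 6.70. Pgr, the progesterone receptor, fell by 2.80 and Wnt4, a ligand induced by progesterone, fell by 3.62. On each pregnant P5 array 8 of the 13 were above background, against 12 to 13 on the virgin P5 arrays. For some of the 13 the fall so rests on a level near background. In virgin mice 10 of the 13 were lower in P4 than in P5, where 4.8% of all genes were. Of 18 luminal progenitor and alveolar genes, 2 rose and 5 fell in pregnant P5, where 10.7% of all genes rose and 10.7% fell. Slc34a2, a phosphate transporter of alveolar cells, rose by 4.98 and Barx2 by 2.62, while Hey1 fell by 6.002 and Gabrp fell by 2.28. Of 10 luminal epithelial markers 1 rose and 5 fell, against the same shares of all genes. Krt18 fell by 3.87 and Krt19 fell by 2.87. Their part in the differences of the 8 genes was not tested.

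Across the 14 arrays, which share the reference and the scans, some members ran together. Pearson's r was 0.90 for Elf3 with Kit, 0.89 for Elf3 with Gata3, 0.88 for Elf5 with Cd14 and 0.85 for Gata3 with Kit. Tbx3 ran apart from Elf5 (-0.18) and Cd14 (-0.23). Outside the 8 genes, the ones with the highest r over 17922 genes were Muc15 (0.99), Bspry (0.98) and Cmtm8 (0.98) for Elf5, Krt8 (0.98), Cdh1 (0.97) and Krt19 (0.97) for Gata3, and Aldh3a2, Zfp982 and Tmem158 (0.97 each) for Tbx3. For Kit they were Cdhr1, Pde9a and Plrg1 (0.97 each), for Cd14 Ube2f (0.98), Bglap3 (0.97) and Llgl2 (0.97), and for Elf3 Mboat2, Trbv14 and Tuft1 (0.95 to 0.96). For Ehf and Ltf the highest were H1f4 and Sall3 (0.93 each).

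Promoters were looked at for the genes that fell together in pregnant P5. Windows from 250 bases before to 50 bases after the RefSeq start (GRCm38.p6) were examined for 5 of the 8 genes. Those of Elf3, Gata3 and Kit are printed because these 3 fell together with Tbx3. Capitals mark each GGAA or its reverse complement, the core that Ets factors bind, on either strand:
Elf3, chr1:135258423-135258722, minus strand: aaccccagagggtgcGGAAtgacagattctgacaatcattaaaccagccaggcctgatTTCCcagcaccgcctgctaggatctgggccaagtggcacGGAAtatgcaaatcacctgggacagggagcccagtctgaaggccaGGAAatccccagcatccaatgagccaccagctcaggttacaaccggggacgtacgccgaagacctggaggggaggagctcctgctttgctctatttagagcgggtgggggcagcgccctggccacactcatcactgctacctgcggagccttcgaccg
Gata3, chr2:9878551-9878850, minus strand: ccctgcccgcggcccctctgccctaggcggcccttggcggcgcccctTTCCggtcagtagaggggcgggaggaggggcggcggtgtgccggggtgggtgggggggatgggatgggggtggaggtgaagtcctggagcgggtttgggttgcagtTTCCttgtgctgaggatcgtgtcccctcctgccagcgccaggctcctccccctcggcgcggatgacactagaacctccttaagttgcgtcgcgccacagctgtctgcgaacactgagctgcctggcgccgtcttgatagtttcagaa
Kit, chr5:75574737-75575036, plus strand: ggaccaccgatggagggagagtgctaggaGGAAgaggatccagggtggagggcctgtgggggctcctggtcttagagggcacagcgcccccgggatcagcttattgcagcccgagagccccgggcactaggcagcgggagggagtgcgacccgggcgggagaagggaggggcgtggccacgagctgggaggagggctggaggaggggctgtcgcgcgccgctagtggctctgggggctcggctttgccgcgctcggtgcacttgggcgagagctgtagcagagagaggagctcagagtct

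Elf3 held 4 such cores, Gata3 2 and Kit 1. Among 32851 windows of this length, 96.0% held at least 1, and the median was 3. The T-box site AGGTGTGA was in none of the 3 and in 1.28% of all windows, and the letters TTCNNNGAA of Stat factors were in none of the 3 and in 8.3%. GATA was in the Gata3 window once, in neither of the other two, and in 57.9% of all windows. A match is a run of letters and not a site of binding.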

How the data were processed

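Per the file headers, the deposited scanner files hold Cy5 and Cy3 spot intensities made with Agilent Feature Extraction 9.5.3.1, with probe positions in mm7. The same deposited files give the scanner's own log10 ratio and flags for background, saturation and outliers, per the file headers. The deposited series table holds log2 ratios, whose columns correlated with the scanner's ratio at r from 0.990 to 1.000. Mean and local background intensities were corrected with normexp (offset 50, outlier backgrounds set to the array's median) and loess in limma 3.58.1 (R 4.3.3). The filter kept 34804 of 41174 probes, those flagged above background in the Cy5 channel on both arrays of 1 or more wild-type groups. The probe brightest on average stood for its gene. One fit over 12 arrays gave the comparisons of P4, P5 and P6, and one over 14 arrays the enriched against depleted ones, with Benjamini-Hochberg adjustment over all genes and calls at an adjusted p under 0.05. No test was made between GFPhi and GFPlo, measured on a single array apiece. Data were simulated for virgin P4 minus virgin P5 (23646 genes, 200 of them changed) with noise independent between arrays. There 38% of genes changed by a log2 of 1 and 96% of those changed by 3 were recovered. In the measured data deviations were correlated within a condition and 2688 genes were called, so these shares need not hold there. The precision is limited by the number of arrays.

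Replicate numbers pair arrays within a condition: the correlation of their deviations from group means was 0.31 to 0.68 in virgin mice (3 pairs) and 0.63 to 0.69 in pregnant mice (3 pairs), against -0.20 to 0.14 across conditions (9 pairs). The pairing comes from the labels' replicate numbers and the shared scans. The 8 genes and all gene lists were chosen with earlier results of these data known. The named genes are the 8, up to 4 genes a list with the smallest adjusted p, and the 3 genes most correlated with each of the 8. Alternatives covered the scanner's ratio, the series table, centring, offset, backgrounds, the filter, the probe of a gene, slide, scan and replicate blocks, and leaving out arrays.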

Additional observations from a re-analysis of the deposited data

Results flagged for a closer look

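The effect of pregnancy on Tbx3 differed among the populations, by the limma F test over P4, P5 and P6 (adjusted p = 0.00134). The log2 difference of pregnant from virgin mice was -0.77 in P4, -5.02 in P5 and -0.37 in P6, with 2 arrays in each group, and both pregnant P5 arrays lay below both virgin P5 arrays.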

How the results depend on the processing

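Of 25 calls, 12 stood under all alternatives run, 15 stood whichever array was left out, and 0 reversed. One of these alternatives, the probe of a gene that is brightest in Cy5, was chosen after seeing the data. Pairwise differences between populations in the effect of pregnancy, given above for Tbx3, Gata3 and Kit, were not among the 25 calls. They were not followed under the alternatives. The counts below are of the 8 genes. For virgin P4 minus P5, the slide, scan and replicate blocks each called 7. For virgin P4 minus P6, median centring, offset 10, backgrounds as given and leaving out scan 3 each called 2, no filter called 0 (limma, main count 1), the slide block 4, and the scan and replicate blocks 3. For pregnant P4 minus P5, the scanner's ratio, the series table and backgrounds as given each called 1, and the scan and replicate blocks 5. For pregnant P4 minus P6, median centring and leaving out scan 3 each called 4, the slide block 5, and the scan and replicate blocks 6. For pregnant P5 minus P6 the scan and replicate blocks called 8. For pregnant minus virgin P4 the slide block called 3, the scan block 2 and leaving out scan 3 called 1, and for P5 the slide block called 7. The F test called 2 with median centring, offset 10 or without scan 3, 3 with backgrounds as given, 6 with the slide block, and 5 with the scan or replicate block. Pregnant enriched minus depleted called 2 with means over the 8 groups. The cause of these moves was not tested.

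Leaving out each array in turn gave 1 to 5 calls for virgin P4 minus P5, 0 to 2 for virgin P4 minus P6, 5 to 6 for virgin P5 minus P6, 1 to 3 for pregnant P4 minus P5, 1 to 4 for pregnant P4 minus P6, 4 to 7 for pregnant P5 minus P6, 3 to 4 for pregnancy in P5, 1 to 2 for the F test, and 0 for the others. A group left with 1 array is assumed to vary like the others. Median centring moved the median of all genes to 0.159 in pregnant P4 minus P6 and 0.148 in pregnant minus virgin P4, and the scanner's ratio moved it to -0.166 in pregnant P4 minus P5 and 0.165 in pregnant P5 minus P6.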
